A study of Mus musculus with 20 samples.

Results

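The genes described here are 40 genes of skeletal muscle that encode parts of the sarcomere, the calcium machinery of contraction and its energy supply. They were listed by gene symbol with earlier results of these data known, so the list is not independent of the values. Each is represented by the probe set with the highest mean over all arrays. All 40 have a probe set, out of 18194 genes with one. Each of 20 arrays was made from RNA of 1 non-tumorous number 4 mammary gland of 1 female FVB/N mouse, heterozygous for the NRL-TGFα transgene of line 1372-1 TgN(Nrl-tgfalpha)29EPS, so every group carries the same transgene and there is no group without it. NRL is the promoter that drives TGFα, a ligand of the epidermal growth factor receptor, in the mammary gland. Mice received a subcutaneous implant at 8.5 weeks of age that held 5 mg tamoxifen, a selective oestrogen receptor modulator, or drug-free carrier (placebo). The gland was taken at 20.5 to 21 weeks of age, 4 weeks after treatment ended, and the mice were watched for mammary tumors up to 2 years of age. The placebo mice comprised 7 with a later tumor (replicates 1, 2, 4, 7, 8, 9 and 10) and 3 without (3, 5 and 6). The tamoxifen mice comprised 3 with a later tumor (1, 2 and 10) and 7 without (3 to 9).

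Striated muscle contracts when calcium released from the sarcoplasmic reticulum binds troponin and lets myosin pull on actin within the repeating sarcomere. Fast and slow fibres use different genes for myosin, its light chains and troponin, and fast fibres rely more on glycolysis. Skeletal muscle is not a constituent of the secretory mammary gland, which is made of epithelium in a fat pad, while the number 4 gland lies in the inguinal region between the skin, which carries a thin muscle sheet in the mouse, and the body wall. The labels do not say how much adjoining muscle or skin was taken with a gland. In whole-tissue RNA, fewer cells of a type and less RNA per cell cannot be told apart. Values are log2 expression after RMA, and they are compared between glands for 1 gene, never between genes.

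The glands carried the markers of their labelled tissue. Adipoq, an adipocyte hormone, lay between 13.79 and 14.21 on the log2 scale in all 20 glands, and Krt18, a keratin of luminal epithelium, between 9.44 and 11.60. Placebo glands 8, 7 and 9 lay farthest out on the first principal component, at -41.13, -30.94 and -14.64 (31.9% of the variance), and the counts of called genes in the comparison that uses them most are also given without them. Array medians lay between 6.82 and 6.89, and the number of arrays limits the precision.

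Promoter sequence is shown for 3 members with large differences, Tnnc2, Acta1 and Ckm, and for 1 slow-fibre member with almost none, Tnnc1, all chosen after their values were seen. Each is the 250 bases before the RefSeq gene start in GRCm38.p6, printed in the direction of transcription. Tnnc2, the fast troponin C that binds calcium, lies on the minus strand with this window at chr2:164779735-164779984. Acta1, skeletal muscle alpha-actin, is on the minus strand at chr8:123894776-123895025. Ckm, muscle creatine kinase, is on the plus strand at chr7:19410844-19411093. Tnnc1, the troponin C of slow and cardiac muscle, is on the plus strand at chr14:31208062-31208311. Capitals mark matches to the E-box CANNTG, a binding motif of MyoD-family factors, to the CArG box of serum response factor and to TATAAA. None of the 4 windows holds the MEF2 motif, another binding motif of muscle genes.
Tnnc2: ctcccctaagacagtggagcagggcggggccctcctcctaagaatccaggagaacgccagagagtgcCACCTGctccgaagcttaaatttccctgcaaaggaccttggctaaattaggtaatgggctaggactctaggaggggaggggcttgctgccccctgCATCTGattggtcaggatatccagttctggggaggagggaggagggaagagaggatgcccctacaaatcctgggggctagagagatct
Acta1: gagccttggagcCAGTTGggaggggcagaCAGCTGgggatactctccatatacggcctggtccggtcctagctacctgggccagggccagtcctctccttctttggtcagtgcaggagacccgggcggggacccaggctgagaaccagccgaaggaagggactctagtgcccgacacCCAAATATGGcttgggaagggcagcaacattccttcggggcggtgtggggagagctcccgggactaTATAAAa
Ckm: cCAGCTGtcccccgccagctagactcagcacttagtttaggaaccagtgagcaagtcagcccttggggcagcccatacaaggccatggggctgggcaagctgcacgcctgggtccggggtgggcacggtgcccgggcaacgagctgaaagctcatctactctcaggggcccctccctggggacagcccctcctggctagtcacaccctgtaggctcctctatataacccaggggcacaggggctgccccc
Tnnc1: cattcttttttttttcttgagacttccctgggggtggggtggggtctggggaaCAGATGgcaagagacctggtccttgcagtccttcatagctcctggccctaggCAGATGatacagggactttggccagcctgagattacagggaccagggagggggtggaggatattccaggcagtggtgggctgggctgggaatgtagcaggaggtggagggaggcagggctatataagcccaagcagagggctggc

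Among the 29 members with a promoter in the RefSeq table, 82.8% held an E-box in this window, against 66.0% of all 27025 promoters, with both strands searched. The CArG box was in 17.2% of member promoters and 1.4% of all, the MEF2 motif in 13.8% and 3.0%, and TATAAA in 17.2% and 13.0%. The TATAAA and MEF2 letters can overlap. The windows of Tnnc2, Acta1 and Tnnc1 each hold 2 E-boxes and that of Ckm 1, and Acta1 also holds 1 CArG box and 1 TATAAA. A match is a description of letters, not a bound site.

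Muscle genes were among the most variable genes in these glands, and a few glands held most of the high values. Between the lowest and the highest gland a member spanned a median of 2.73 on the log2 scale, against 0.484 for all 18194 genes. Tamoxifen gland 7 had the highest value of 29 of the 40 members, tamoxifen 9 of 6, tamoxifen 8 of 3, and tamoxifen 3 and 4 of 1 each. All of these are tamoxifen glands without a later tumor. The 3 highest values of a member included tamoxifen 9 for 37 members, tamoxifen 7 for 35 and tamoxifen 3 for 27.

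**Figure D1:**
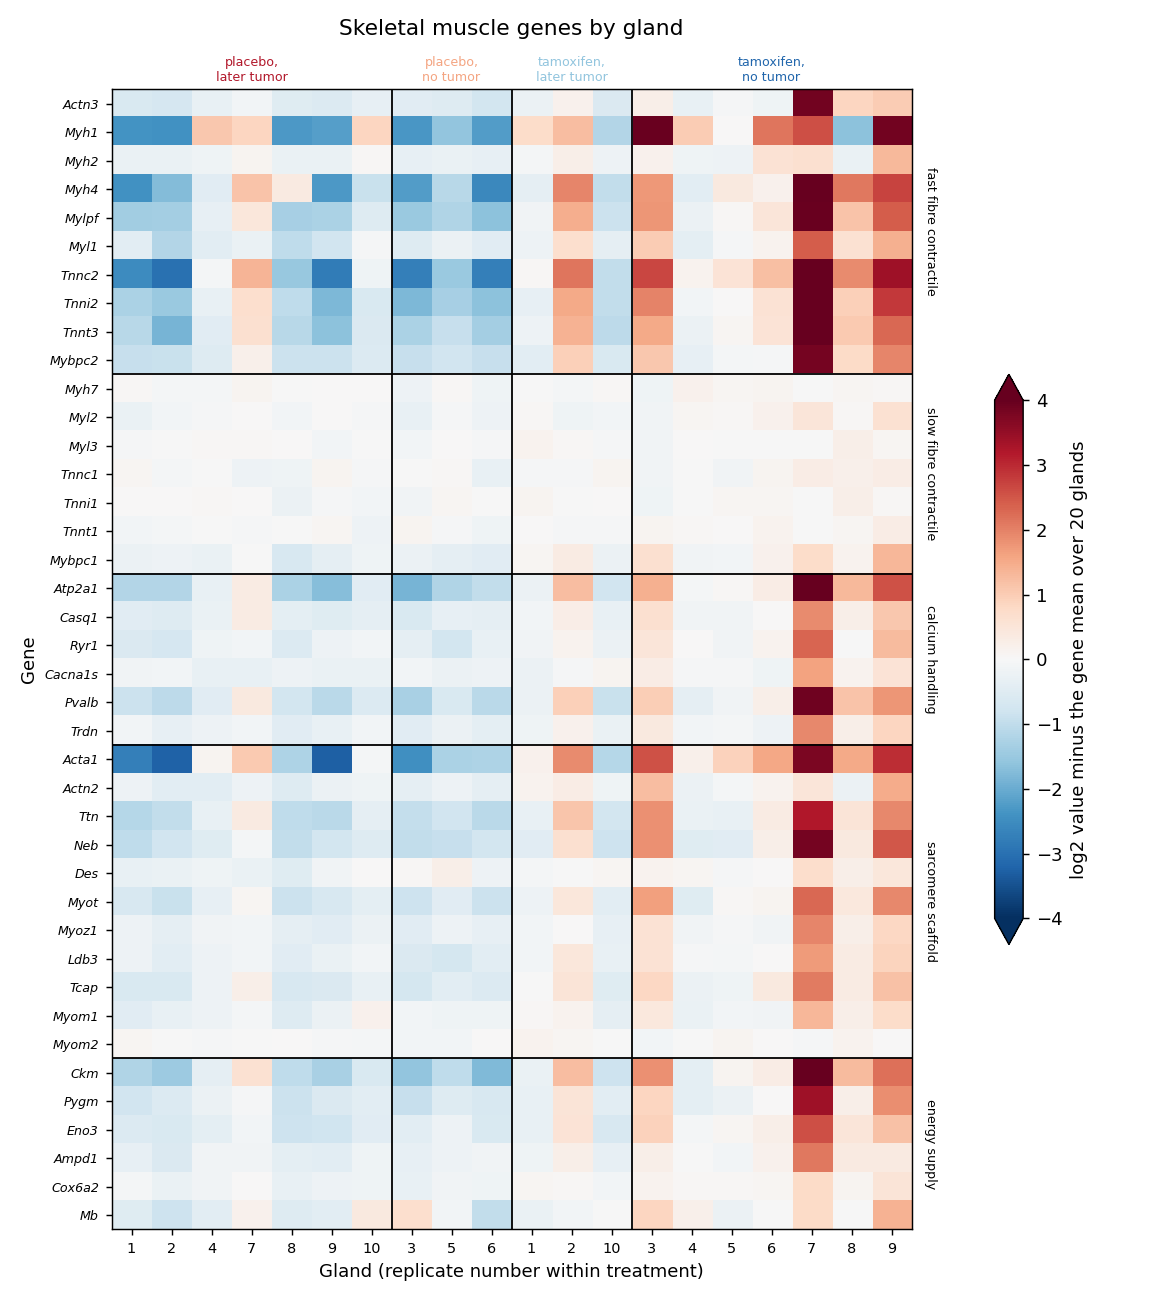
Heat map of the 40 members (rows, by role) in the 20 glands (columns, by group, numbered within treatment); colour is the log2 value minus the gene's mean over the 20 glands, and colours saturate at 4. Tamoxifen glands 7, 9 and 3 stand out in most roles, and the slow fibre rows other than Mybpc1 are among the palest.

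The mean of the members' centred log2 values, taken as a muscle value per gland, ran from -0.79 to 0.17 with a median of -0.63 in the 7 placebo glands with a later tumor. It was between -0.75 and -0.50 in the 3 placebo glands without one. The 3 tamoxifen glands with a later tumor ran from -0.44 to 0.56, and the 7 without one from -0.10 to 2.19 with a median of 0.45. The placebo glands with a later tumor overlapped each of the other groups, and the 3 placebo glands without one lay below every tamoxifen gland. The value of tamoxifen 7 was 2.19, of tamoxifen 9 1.41 and of tamoxifen 3 0.92, and no other gland was above 0.56.

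The first comparison set tamoxifen glands without a later tumor against placebo glands with one, the 2 groups of 7. It differs in both treatment and outcome, which cannot be told apart in it. Of the 40 members, 28 passed a filter, a value over the median of the whole table on 3 arrays or more, and limma called 14, all higher in the tamoxifen glands and none lower. Over all 12499 genes tested, 2.23% were called higher (279 up and 300 down, adjusted p under 0.05). Without the filter limma called 12 of all 40, and Ttn and Tcap were lost (adjusted p = 0.0508 and 0.0530). Myot, Ryr1 and Myom1 passed the filter only through tamoxifen glands 3, 7 and 9. Ttn, Mybpc2, Actn3, Actn2 and Ldb3 also reached 3 arrays only with tamoxifen glands without a later tumor. All of these could be tested only because they are high in that group. By role the called members were 5 of 9 tested fast fibre genes, 0 of 1 slow, 1 of 4 calcium handling, 5 of 9 scaffold and 3 of 5 energy supply genes. All 40 differences were positive, with a median of 0.87 on the log2 scale against 0.01 for all genes, and 12 of the 25 largest called rises in the whole table were members.

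The count of 14 changed with the glands used. It fell to 4 without placebo 8 or without placebo 9, to 6 without tamoxifen 3 or without tamoxifen 9, to 1 (Acta1, adjusted p = 0.0409 in limma) without placebo 7, 8 and 9 together, and to 0 without tamoxifen 3, 7 and 9, which have the highest muscle values and so lower the difference by construction when left out. It was also 0 when the luminal epithelium value of each gland was a covariate; that value ran from 0.10 to 1.32 in placebo glands with a later tumor and from -0.82 to 0.16 in tamoxifen glands without one. With this covariate the difference of Tnnc2 was 3.56 (adjusted p = 0.918 in limma), against 3.30 without it. The calls over all genes with this covariate, and without each set of 3 glands, are not given here. Those counts of members can therefore not be read as particular to muscle genes. Leaving out 1 gland also changed the calls over all genes, to between 295 and 845 against 579 with all glands. The difference of Tnnc2 stayed between 2.87 and 3.73 in those fits.

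**Figure D2:**
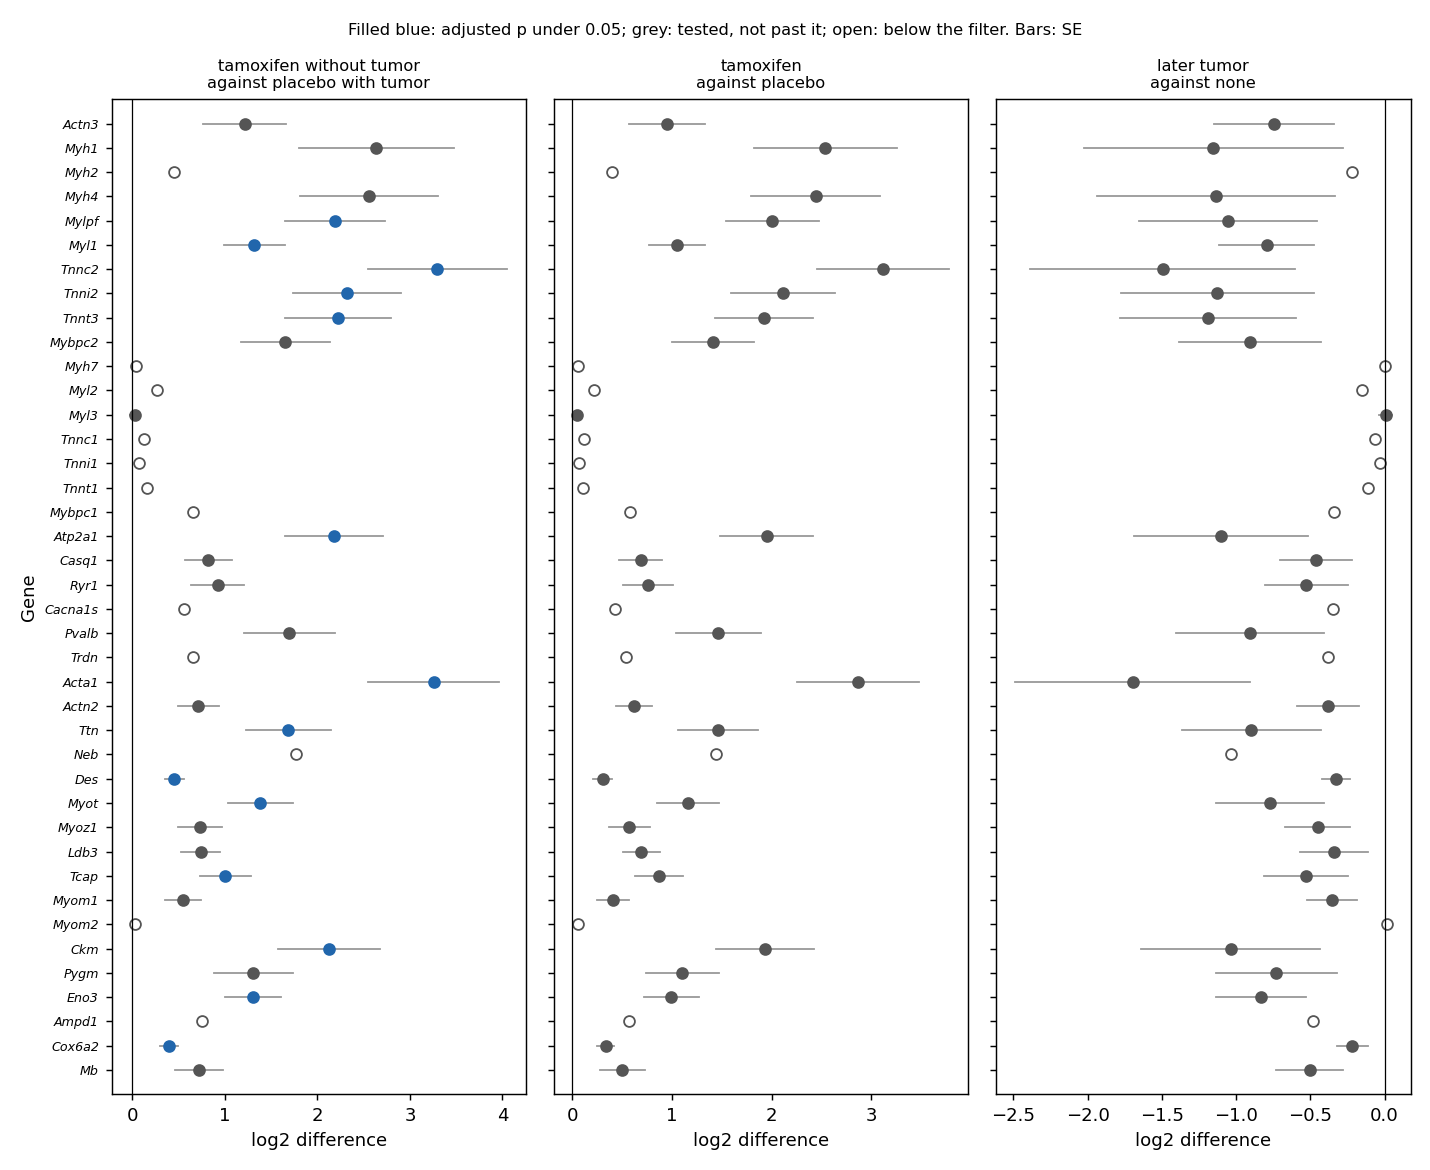
Log2 difference of each member (rows, by role) in 3 comparisons, with SE bars; blue points have an adjusted p under 0.05, grey points were tested and did not, and open points lie below the filter and were not tested. Blue points appear in the first panel alone, for 14 members, and all of its points are above 0.

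Fast fibre genes had the widest values. Tnnc2 (Entrez ID 21925), the calcium sensor of fast muscle, ran from 5.15 to 9.50 with a median of 6.63 in placebo glands with a later tumor and from 8.28 to 12.74 with a median of 10.02 in tamoxifen glands without one. In the smaller groups it was 5.41, 6.67 and 5.41 in placebo glands without a tumor and 8.18, 10.29 and 7.15 in tamoxifen glands with one. The ranges of the larger groups overlapped through placebo 7. The means were 6.90 ± 1.66 and 10.20 ± 1.60 (SD, n = 7 each), a difference of 3.30 ± 0.75 (SE) in limma with an adjusted p of 0.0194, about 9.82-fold.

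The other fast genes past the threshold were Tnni2 and Tnnt3, the fast troponin I and T, Mylpf, the regulatory light chain, and Myl1, the essential light chain. In limma their log2 differences were 2.32 (adjusted p = 0.0304), 2.22 (0.0328), 2.19 (0.0270) and 1.32 (0.0299). The other probe sets of Tnni2 differed by 1.24 and 0.145. Myh1, the heavy chain of type IIx fibres, ran from 4.11 to 7.62 with a median of 4.33 in placebo glands with a later tumor and from 4.92 to 10.50 with a median of 8.68 in tamoxifen glands without one, and its difference of 2.64 ± 0.84 (SE) did not pass (adjusted p = 0.0758). It was 4.22, 4.98 and 4.30 in placebo glands without a tumor and 7.28, 7.77 and 5.36 in tamoxifen glands with one. Myh4, the heavy chain of type IIb fibres, differed by 2.56 (adjusted p = 0.0553), and Mybpc2, the fast myosin-binding protein C, by 1.65 (0.0551). Actn3, the Z-disc actinin of fast fibres, differed by 1.21 (adjusted p = 0.125).

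Myh2, the heavy chain of type IIa fibres, had the smallest difference of the fast genes, 0.45, and stayed below the filter. It ran from 4.71 to 5.09 (median 4.74) in placebo glands with a later tumor and from 4.73 to 6.28 (median 5.17) in tamoxifen glands without one. The highest value was in tamoxifen 9. Its values were 4.65, 4.74 and 4.65 in placebo glands without a tumor and 4.92, 5.24 and 4.80 in tamoxifen glands with one.

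**Figure D3:**
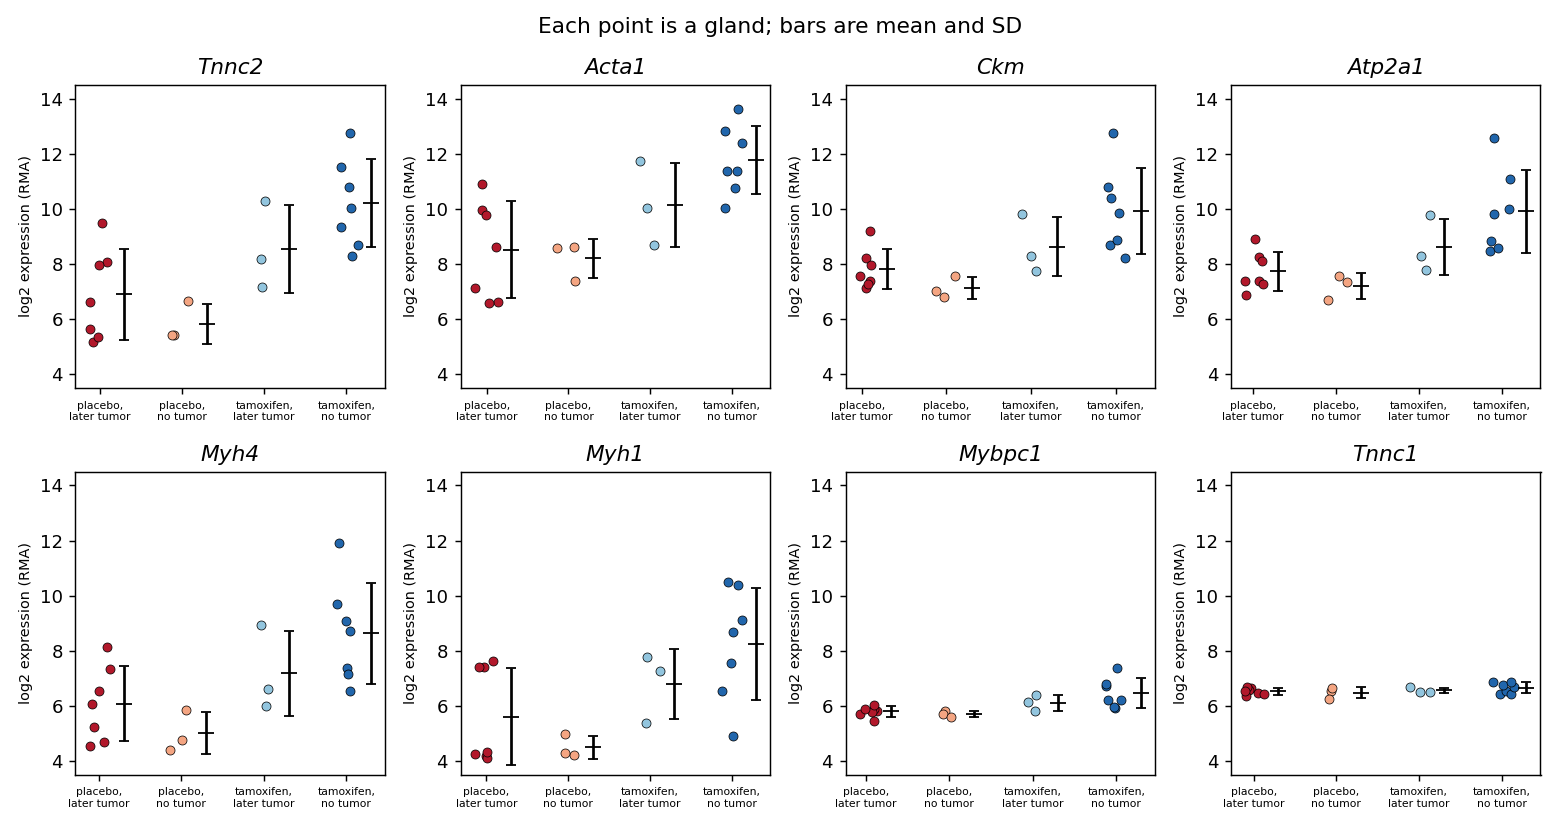
Log2 expression of 8 members by group; each point is 1 gland, and the bar beside each group is its mean with SD (n = 7, 3, 3 and 7 from left to right). The highest point of every gene is a tamoxifen gland without a tumor, and Tnnc1 stays between 6.26 and 6.87 in every group.

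The order of the glands differed between Myh1 and Myh4, a pattern looked for after the values were seen. Myh1 was 9.13 in tamoxifen 7 and 10.50 in tamoxifen 3, whereas Myh4 was 11.90 and 8.71. Between tamoxifen 8 and tamoxifen 6, Myh1 was 4.92 and 8.68 (a difference of -3.76), and Myh4 was 9.07 and 7.15 (a difference of 1.91). Between placebo 8 and placebo 4, Myh1 was 4.24 and 7.62 and Myh4 7.34 and 6.53. Each pair has 1 gland a side and no test. Myh1 was higher in tamoxifen 3 than in tamoxifen 7, while 36 of the 40 members were higher in tamoxifen 7. Actn3 was 10.83 in tamoxifen 7 and 7.19 in tamoxifen 3.

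Myh2, Myh1 and Myh4 are neighbours on chromosome 11 of GRCm38.p6, at 67171027 to 67197517, 67200102 to 67224577 and 67237812 to 67260447. Their sequences are closely alike, and cross-hybridisation between their probe sets was not tested. Of the 3 Myh1 probe sets, 2 differed by 2.64 and 2.49 between the larger groups and the third by 0.03. The 2 Myh4 probe sets differed by 2.56 and 0.96.

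**Figure D4:**
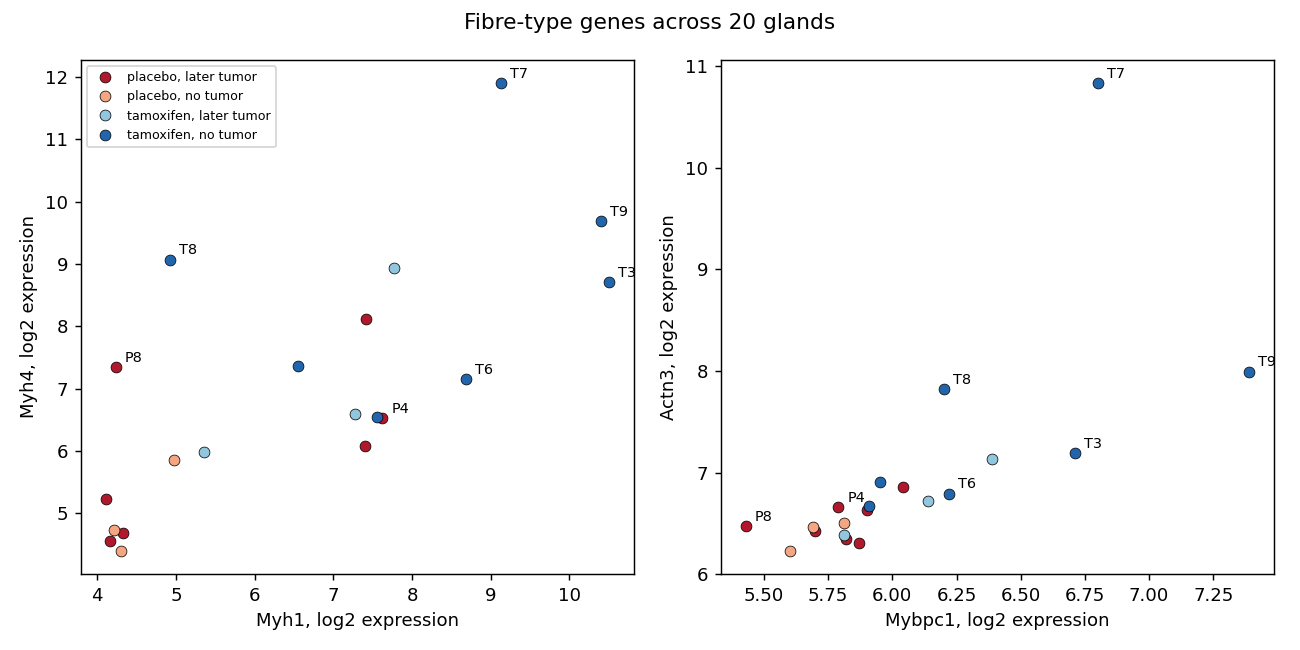
Left, log2 values of Myh4 against Myh1; right, Actn3 against Mybpc1; each point is 1 gland, coloured by group, with P for placebo and T for tamoxifen. T8 lies above T6 for Myh4 and below it for Myh1, as P8 does to P4, and T7 has an Actn3 value of 10.83.

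Slow fibre genes were nearly flat by the chosen probe sets. The range across glands had a median of 0.50 on the log2 scale for the 7 slow genes and 5.78 for the 10 fast genes. Mybpc1, the slow myosin-binding protein C, had the largest difference, 0.66, and ran from 5.43 to 6.04 (median 5.82) in placebo glands with a later tumor and from 5.91 to 7.39 (median 6.22) in tamoxifen glands without one. It was 5.81, 5.69 and 5.60 in placebo glands without a tumor and 6.14, 6.39 and 5.81 in tamoxifen glands with one. The highest Mybpc1 values were in tamoxifen 9, 7 and 3, the glands with the highest muscle values.

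Myl2, the regulatory light chain of slow and cardiac muscle, differed by 0.26 and ran from 4.85 to 5.13 (median 5.06) and from 4.98 to 5.71 (median 5.20) in the same order of groups. It was 4.81, 5.05 and 4.89 in placebo glands without a tumor and 5.14, 4.95 and 5.00 in tamoxifen glands with one. Myl3, the slow and ventricular essential light chain and the 1 slow gene that passed the filter, ran from 7.0 to 7.14 (median 7.10) and from 6.96 to 7.33 (median 7.10), with a difference of 0.03 ± 0.05 (SE, adjusted p = 0.800 in limma). Its values were 7.01, 7.12 and 7.06 in placebo glands without a tumor and 7.25, 7.14 and 7.05 in tamoxifen glands with one. The other probe sets of Myl3 differed by 0.075 and 0.264 between the larger groups. Myh7, Tnnc1, Tnni1 and Tnnt1, the slow heavy chain and slow troponins, differed by 0.04, 0.13, 0.07 and 0.16 and stayed below the filter. Low values on arrays compress differences, so a flat low probe set does not show that the RNA was absent.

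Among the calcium handling genes Atp2a1, the fast-fibre pump that returns calcium to the sarcoplasmic reticulum, had the largest difference. It ran from 6.86 to 8.89 (median 7.37) in placebo glands with a later tumor and from 8.47 to 12.57 (median 9.83) in tamoxifen glands without one. It was 6.69, 7.34 and 7.57 in placebo glands without a tumor and 8.30, 9.77 and 7.78 in tamoxifen glands with one. The larger groups overlapped, and the difference was 2.18 ± 0.53 (SE, adjusted p = 0.0270 in limma).

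Pvalb, the calcium buffer parvalbumin of fast fibres, ran from 6.70 to 8.18 (median 7.06) and from 7.43 to 11.68 (median 8.78) in the larger groups. It was 6.48, 7.19 and 6.71 in placebo glands without a tumor and 7.54, 8.73 and 6.90 in tamoxifen glands with one, and its difference of 1.69 did not pass (adjusted p = 0.0551 in limma). Casq1, the calcium store protein calsequestrin, differed by 0.82 (adjusted p = 0.0653 in limma) and Ryr1, the release channel, by 0.92 (0.0727). Cacna1s, the voltage sensor, had the smallest difference, 0.55, and Trdn, triadin, which anchors calsequestrin, one of 0.66, both below the filter. Cacna1s ran from 5.48 to 5.69 (median 5.52) and from 5.61 to 7.40 (median 5.92), with 5.67, 5.56 and 5.58 in placebo glands without a tumor and 5.57, 5.73 and 5.91 in tamoxifen glands with one, and the value of 7.40 was that of tamoxifen 7.

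Of the scaffold genes Acta1, the actin of the thin filament, differed most. It ran from 6.59 to 10.91 (median 8.61) in placebo glands with a later tumor and from 10.04 to 13.62 (median 11.39) in tamoxifen glands without one. It was 7.39, 8.59 and 8.63 in placebo glands without a tumor and 10.02, 11.73 and 8.70 in tamoxifen glands with one. The means of the larger groups were 8.51 ± 1.76 and 11.77 ± 1.24 (SD, n = 7 each), and the difference was 3.26 ± 0.71 (SE, adjusted p = 0.0141 in limma).

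Ttn, the giant elastic protein titin, Myot and Tcap, both of the Z-disc, and Des, the intermediate filament desmin, also rose, by 1.69 (adjusted p = 0.0427), 1.38 (0.0314), 1.00 (0.0446) and 0.45 (0.0184) in limma. Myot passed the filter only through tamoxifen 3, 7 and 9, in the group where it is high, and Ttn also passed only with glands of that group. When 1 gland was left out, Des was called in all 20 fits but Ttn and Tcap in 7 of 20 each, with adjusted p up to 0.0822 and 0.0864. Des is also made by smooth muscle, and its second probe set differed by 0.129. The other probe sets of Ttn differed by 0.942, 0.451, 0.396, 0.195 and -0.034. Neb, nebulin of the thin filament, differed by 1.77 below the filter, from 3.84 to 4.78 (median 4.12) against 4.36 to 8.68 (median 5.24). Its values were 3.86, 3.92 and 4.10 in placebo glands without a tumor and 4.39, 5.48 and 4.03 in tamoxifen glands with one. Actn2, Myoz1, Ldb3 and Myom1 were tested and differed by 0.71, 0.73, 0.74 and 0.54 without passing (adjusted p = 0.0701, 0.0785, 0.0516 and 0.111 in limma).

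Myom2, an M-band protein, was flat by the chosen probe set, which had a difference of 0.03, but not by its other 3. The chosen set ran from 5.66 to 5.79 (median 5.71) and from 5.60 to 5.86 (median 5.74), with 5.62, 5.63 and 5.75 in placebo glands without a tumor and 5.86, 5.81 and 5.70 in tamoxifen glands with one. The other sets, looked at after the values were seen, differed by 1.42, 1.28 and 0.93, and the first reached 8.86 in tamoxifen 7. The flat value of Myom2 is therefore that of 1 of 4 probe sets.

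The energy supply genes held the 3 called members Ckm, Eno3 and Cox6a2. Ckm ran from 7.14 to 9.19 (median 7.56) in placebo glands with a later tumor and from 8.20 to 12.76 (median 9.85) in tamoxifen glands without one, with 7.0, 7.57 and 6.80 in placebo glands without a tumor and 8.30, 9.82 and 7.76 in tamoxifen glands with one. The larger groups overlapped, and the difference was 2.12 ± 0.55 (SE, adjusted p = 0.0343 in limma). A second Ckm probe set differed by 0.18. Eno3, the muscle enolase of glycolysis, differed by 1.31 (adjusted p = 0.0213 in limma).

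Pygm, muscle glycogen phosphorylase, differed by 1.31 without passing (adjusted p = 0.0862 in limma). It ran from 6.44 to 7.25 (median 6.76) and from 6.92 to 10.70 (median 7.53), with 6.38, 6.78 and 6.65 in placebo glands without a tumor and 6.99, 7.82 and 6.88 in tamoxifen glands with one. Cox6a2, a heart and muscle subunit of cytochrome oxidase, had the smallest difference of this role, 0.40 (adjusted p = 0.0288 in limma), and ran from 7.11 to 7.43 (median 7.23) and from 7.44 to 8.18 (median 7.52). It was 7.12, 7.26 and 7.23 in placebo glands without a tumor and 7.47, 7.46 and 7.28 in tamoxifen glands with one. Mb, the oxygen store myoglobin, differed by 0.72 (adjusted p = 0.121) and Ampd1, muscle AMP deaminase, by 0.75 below the filter.

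Every tamoxifen gland without a tumor lay above every placebo gland with one for 3 of the 28 tested members, Ldb3, Eno3 and Cox6a2, and for 0.32% of all 12499 genes. The same held for Ampd1, which was not tested. Placebo 7 lay within the tamoxifen range for each of the other called members except Des, where placebo 10 did. These are values of the chosen probe sets. The other probe sets of Ldb3 differed by 0.043 and -0.042 between the same groups, and the second of Cox6a2 by 0.158. Ldb3 passed the filter only with tamoxifen glands without a tumor, the group where it is high.

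Treatment alone, with no term for outcome, set 10 tamoxifen glands, 7 of them without a later tumor, against 10 placebo glands, 3 without. Treatment and outcome are therefore mixed in it. All 40 differences were positive, with a median of 0.73. limma called 0 members, with 0.008% of all genes called, and at an unadjusted p under 0.05 there were 27 of the 28 tested members and 13.9% of all genes. The smallest adjusted p of a member was 0.0706, for Tnnc2 and Acta1, which differed by 3.12 and 2.86. Without tamoxifen 10 there were 3 members called, and without placebo 5 or without placebo 6 there were 2 each. Over the whole table, leaving out 1 gland gave 0 to 110 called genes, against 1 with all glands.

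Outcome alone, with no term for treatment, set 10 glands with a later tumor, 7 of them placebo, against 10 without, 3 of them placebo. Outcome and treatment are mixed here too. Of the 40 differences 37 were negative, with a median of -0.52. limma called 0 members and 0.232% of all genes, and at an unadjusted p under 0.05 there were 7 of 28 members and 16.5% of all genes. Des had the smallest p of the members, with a difference of -0.33 and an adjusted p of 0.104.

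Within placebo mice the outcome difference was positive for 30 of 40 members, with a median of 0.13. limma called 0 members and 0.008% of genes, and at an unadjusted p under 0.05 there were 0 of 28 members and 14.1% of genes. Within tamoxifen mice 37 of 40 differences were negative, with a median of -0.61. limma called 0 members and 0.008% of genes, and at an unadjusted p under 0.05 there was 1 of 28 members, Eno3, and 2.1% of genes.

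Among mice without a tumor the treatment difference was positive for all 40 members, with a median of 1.05. limma called 0 members and 0.064% of genes, and at an unadjusted p under 0.05 there were 24 of 28 members and 5.26% of genes. Tnnc2 differed by 4.37 (adjusted p = 0.126 in limma). Among mice with a later tumor 38 of 40 differences were positive, with a median of 0.30, and limma called 0 members and 0.0% of genes, with 0 of 28 members and 7.0% of genes at an unadjusted p under 0.05.

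The interaction tests whether the outcome difference differs between treatments. limma called 0 members and 0.0% of genes, with 0 of 28 members and 4.52% of genes at an unadjusted p under 0.05, and the interaction of Tnnc2 was -2.73 ± 1.38 (SE, adjusted p = 0.938). These comparisons share glands, and their counts are not independent.

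Most other muscle genes showed the direction of the members with smaller differences, in the comparison of tamoxifen glands without a tumor against placebo glands with one. Of 25 tested genes of muscle structure and coupling beyond the members, limma called 1 higher, against 2.23% of all genes. It was Ankrd23, a titin-binding stress protein of muscle, higher by 0.46 (adjusted p = 0.0475). Of the 38 with a probe set, 36 differences were positive, with a median of 0.12. Pdlim3 and Tpm2 were lower, Pdlim3 the most, with a difference of -0.60, and neither was called. Of 9 metabolic genes limma called 0 (4 at an unadjusted p under 0.05, with 20.4% of all genes there). For that list 13 of 13 differences were positive, with a median of 0.36. Tmod4, which caps thin filaments in muscle, Synpo2l and Nrap, both of the muscle Z-disc and attachment sites, differed by 0.51, 0.31 and 0.35 without passing (adjusted p = 0.0751, 0.0813 and 0.0884), and Pgam2, muscle phosphoglycerate mutase, by 1.14 (0.0685). Myod1, Myog and Pax7, factors of muscle precursors, did not exceed the filter level in any gland, and neither did Chrna1, a subunit of the muscle acetylcholine receptor. Of 8 genes of the neuromuscular junction 7 had positive differences, with a median of 0.03, and 3 were tested. Chrnb1, the beta subunit of that receptor, was the 1 called and was lower, with a difference of -0.33 (adjusted p = 0.0425 in limma), and Myl4, an embryonic light chain, was higher by 0.37 (0.0395).

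Of 8 heart markers, Myh6, Nppa, Tnni3, Tnnt2, Myl7 and Ryr2 did not exceed the filter level in any gland. The other two, Nppb and Actc1, a natriuretic peptide and cardiac actin, differed by 0.08 and 0.06 (adjusted p = 0.509 and 0.645 in limma). Of 3 genes of muscle atrophy 1 was tested. Fbxo32, an ubiquitin ligase, fell by 0.85 (adjusted p = 0.00664 in limma), while Trim63 and Trim54 were below the filter with differences of 0.53 and 0.33 and highest values of 5.92 and 6.75 in tamoxifen 7.

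Markers of other cells moved with the same groups. Of 10 luminal epithelium genes limma called 8 lower in tamoxifen glands without a tumor, with log2 differences of -0.95 for Krt18 (adjusted p = 0.0139) and -1.31 for Epcam, an adhesion protein of epithelium (0.00388). Of 9 milk genes 6 were lower, and the casein gene Csn2 differed by -6.89 (adjusted p = 0.000358 in limma). Of 9 lymph node genes 4 were higher, Cd3e by 0.46 (adjusted p = 0.00506), and Ccr7, Cd3g and Cd3d by 0.77, 0.65 and 0.63. The lymph node value ran from -0.59 to -0.13 in placebo glands with a tumor and from -0.39 to 0.79 in tamoxifen glands without one, with -0.09 in tamoxifen 7 and 0.50 in tamoxifen 3. With the lymph node value as a covariate, a setting chosen after seeing the data, limma called 22 members, all of the 14 among them, and Tnnc2 differed by 4.79. The calls over all genes in that fit are not given here. The part of the milk genes in the muscle result was not tested.

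Of 13 tested genes of smooth muscle and myoepithelium, 2 were lower, Cnn1 and Myh11, with differences of -0.65 and -0.41 (adjusted p = 0.0262 and 0.0372 in limma), and Acta2, smooth muscle actin, differed by -0.47 (0.0544). limma called none of 8 white fat genes, 8 brown fat genes, 4 epidermis genes or 6 blood vessel genes, of which 2, 4, 0 and 1 had an unadjusted p under 0.05, against 20.4% of all genes. The epidermis value was 0.36 in tamoxifen 7, lower only than the 0.51 of tamoxifen 1; its part in the muscle values was not tested. Ucp1, the uncoupling protein of brown fat, ran from 10.43 to 13.86 across glands and differed by 0.45 (adjusted p = 0.552). S100b, of nerve sheath and other cells, was higher by 1.17 (adjusted p = 0.0465), 1 of 5 tested genes of that list.

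Without placebo 7, 8 and 9, an alternative added after the data were seen, 3 of the 10 luminal genes were called lower by limma in place of 8, with Epcam at -0.90 (adjusted p = 0.0369) and Krt18 at -0.80 (0.168). Again 6 milk genes were called, with Csn2 at -6.08 (adjusted p = 0.00739), and so was that of Fbxo32, at -0.60 (0.00155). No lymph node gene was called (Cd3e 0.35, adjusted p = 0.0867), and no smooth muscle gene (Cnn1 -0.50, 0.155; Myh11 -0.27, 0.205). The calls of Ankrd23, Chrnb1, Myl4 and S100b were also lost (adjusted p = 0.226, 0.214, 0.0578 and 0.185 in limma).

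**Figure D5:**
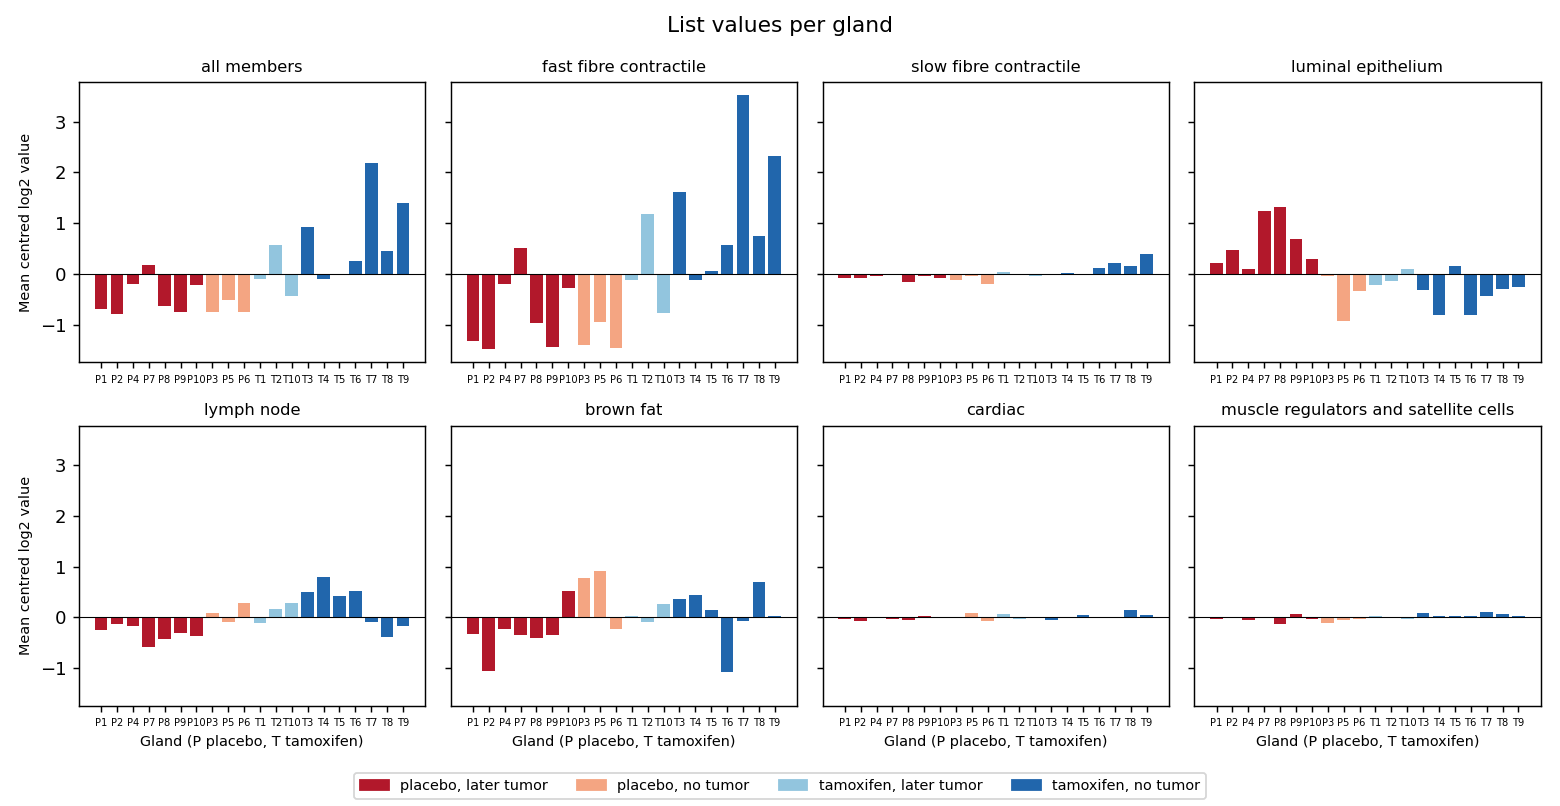
Mean centred log2 value per gland (bars) of 8 gene lists, with glands ordered by group and coloured as in the key (P placebo, T tamoxifen). The bars of all members and fast fibre genes are highest in T7, T9 and T3, those of slow fibre genes stay between -0.20 and 0.38, and luminal epithelium is highest in P8 and P7.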

How the data were processed

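Expression was measured in 20 mammary glands, 1 per mouse. The deposited values are log2 expression per probe set, which the authors obtained with RMA (submitters' processing notes, which name no software version or genome build). They lay between 3.38 and 14.55 over 45101 probe sets and were used as they stood. Probe sets with 1 gene symbol in the platform table numbered 34958, with several 932 and with none 9211, and 34754 of them took a current symbol through their Entrez ID. Where 1 of the 18194 genes had several probe sets, the brightest on average stood for it.

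The 12499 genes that exceeded the median of the whole table on 3 arrays or more were fitted in R 4.3.3 by limma 3.58.1 (linear model, moderated statistics), two-sided, with Benjamini-Hochberg adjustment over all genes tested and a threshold of 0.05. Treatment alone and outcome alone were fitted on all arrays, each without a term for the other, and 6 contrasts came from 1 model of the 4 groups. The labels call the mice biological replicates. In simulated data of the comparison of tamoxifen without tumor against placebo with tumor (12499 genes), a log2 change of 1 was called in 96 of 100 changed genes and a change of 2 in 100 of 100, with 11 false calls. Changed genes were drawn at random, with independent noise at each gene's own spread. The members vary more between glands and move together, so these shares cannot be carried over to them. Myh1 and Myh4 differed by 2.64 and 2.56 in the real data and were not called.

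The 40 members and the other lists were chosen with earlier results of these data known. Members given in full are, in each role, the 2 with the largest and the 1 with the smallest difference between tamoxifen glands without and placebo glands with a later tumor, plus Ckm and Acta1; from other lists up to 4 genes were taken by their moderated statistic, with a fixed set of markers whether or not they passed. Deviations of same-numbered glands correlated between -0.101 and 0.586 for treatment numbers, over 0.1 in 4 of 10 pairs. For outcome numbers they correlated between -0.219 and 0.322, over 0.1 in 1 of 10. These correlations do not settle whether the numbers pair the glands, and the labels do not say so. The main fits did not treat the numbers as pairs, and a replicate block was run as an alternative. Alternatives covered scaling, array weights, the filter, probe set choice, variance settings, blocks, covariates and leaving out glands. Sequences are from RefSeq (GRCm38.p6), which held a promoter for 29 of the 40 members.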

Additional observations from a re-analysis of the deposited data

Results flagged for a closer look

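In groups of 7 glands, the gap of the most extreme gland to its neighbour as a share of the group's range was taken for each member and for the muscle value, and 5 of 82 such sets of 7 values stood out. Chance flags about 1 in 20 groups, so 5 flags are near what chance gives, and members measured in the same gland are not independent. Among tamoxifen glands without a tumor, tamoxifen 7 stood apart for Actn3 (10.83, share 0.684), Cacna1s (7.40, share 0.60) and Ampd1 (8.02, share 0.79). Among placebo glands with a later tumor, placebo 7 stood apart for Casq1 (7.79, share 0.713) and Mybpc2 (7.27, share 0.622). Placebo 7 also had the highest muscle value of that group, 0.17.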

How the results depend on the processing

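In the comparison of tamoxifen without tumor against placebo with tumor, 14 members were called. Equal array medians gave 17, quantile normalization 14, no filter 12, a filter on 10 arrays 12, the mean of all probe sets 13, trend and robust settings 14, array weights 13 and a term for the run of numbers 15. The replicate block gave 23, and for treatment alone it gave 11 against 0. The labels do not say that the numbers pair the glands. Correlations of same-numbered glands, over 0.1 in 4 of 10 treatment pairs, do not settle it. Chosen after seeing the data, the lymph node covariate gave 22, leaving out placebo 7, 8 and 9 gave 1, and leaving out tamoxifen 3, 7 and 9 gave 0; the last 3 glands were picked for their high muscle values, so a smaller difference follows from its construction. The luminal epithelium covariate gave 0. Leaving out 1 gland gave 4 to 18 members there and 0 to 3 for treatment alone. Over all genes those fits called 295 to 845 and 0 to 110. Tnnc2, Acta1, Des and Eno3 were called in all 20 of those fits in the first of these comparisons. For the remaining alternatives the counts over all genes are not given here. The other 6 comparisons had 0 members called under every alternative run. Of the member differences, 6 changed sign, all of Myl3 and all near 0. The value of Myl3, later tumor against none, was -0.00754 with equal array medians, -0.011 with quantile normalization and from -0.00968 to 0.0311 when 1 gland was left out. The value of Myl3, tamoxifen without tumor against placebo with tumor, ran from -0.00634 to 0.0548 when 1 gland was left out. The cause of these changes was not tested. Low probe sets limit the slow fibre genes, 6 of 7 of which were not tested.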
